A study of Mus musculus with 15 samples.

Results

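Gene expression was compared between the ventral and the dorsal dentate gyrus (vDG and dDG) of adult mice that lacked the serotonin receptor 5-HT4R, the product of Htr4, in part of their hippocampal neurons. The members were the whole-tissue input libraries of the conditional knockout (cKO), 2 from vDG and 2 from dDG, 4 of the 15 libraries of the series. All cKO animals, in both regions, carried the alleles Drd3-Cre KI198, Rosa26-fsTRAP and Htr4-Floxed and were 8 to 12 weeks old. The Cre line is a BAC transgene under Drd3 sequence that is active in mature granule cells, hilar mossy cells and a subset of CA pyramidal cells, so interneurons, progenitors and glia in the same tissue kept Htr4 intact. WT inputs, 3 from vDG and 3 from dDG, carried Drd3-Cre KI198 and Rosa26-fsTRAP alone and had the same age. Both genotypes therefore expressed Cre and the EGFP-tagged ribosomal protein L10a. Input RNA was taken before affinity purification from the cleared lysate of the dissected piece, after spins that pellet nuclei and debris, so it was not selected for any cell type. Per the labels each input pooled 2 mice. For the inputs the source field reads cortex, whereas the brain region field reads dentate gyrus.

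The dentate gyrus is the entry station of the hippocampal circuit. Its granule cells receive input from the entorhinal cortex and send mossy fibres to hilar mossy cells and to CA3, and new granule cells are added in adult life from progenitors at the base of the granule cell layer. Dorsal and ventral levels differ in connections and in gene expression: the dorsal pole is tied mainly to spatial learning and the ventral pole to anxiety, stress and mood. 5-HT4R couples to Gs and raises cAMP in the cells that carry it.

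Each library held between 21091686 and 25310682 counts on genes, and 15505 of 32657 features passed the filter on low counts. Htr4 came first as the targeted gene, and its levels were 30.4 and 28.5 CPM in vDG against 48.7 and 53.9 CPM in dDG. CPM are counts scaled to a common library total across the 10 input libraries. The vDG libraries were thus both below the dDG libraries (log2 fold change −0.80 ± 0.13, adjusted p = 0.00012), and in WT the log2 fold change was −0.89 (adjusted p = 0.00066). The counts sum all exons of Htr4, and the floxed part is exon 5, so these levels do not test the deletion. In whole tissue, here and below, fewer cells of a type and less RNA per cell cannot be told apart. Fold changes here and below are vDG over dDG on the log2 scale with their SE, from edgeR's quasi-likelihood test with Benjamini-Hochberg adjustment over all 15505 genes. A gene was called at an adjusted p below 0.05. The labels do not say more of how the pools of a group differ, so the p-values measure only the spread between these pools.

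One library stood apart in its make-up. In vDG replicate 1 of the cKO the Y-linked genes Ddx3y, Eif2s3y, Kdm5d and Uty all had 0 counts, whereas Ddx3y was at 15.8 to 27.5 CPM in the other 9 inputs, and Xist was higher there (30.9 CPM against 6.71 to 22.9 CPM). The study's methods describe pools of both sexes. Rn45s, the ribosomal RNA precursor, took 7.16% of the counts of this library and 3.69 to 5.41% of the other 3 cKO inputs, while 3 of the 6 WT inputs had 7.03 to 7.66%. Where leaving out 1 library moved a count of calls by over 1.5 times, for all genes or in a list with at least 2 calls, the count without it is given beside the result.

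The region of dissection was checked first. The study used Lct as a marker of dDG, Trhr of vDG, Dsp of the dentate gyrus as a whole and Tyro3 of the CA fields. Lct was lower and Trhr higher in vDG, Dsp was lower in vDG and Tyro3 higher. Dsp, which encodes the desmosomal linker desmoplakin (chr13:38151294-38198577, GRCm38), had 32.7 and 45.6 CPM in vDG against 148 and 220 CPM in dDG (log2 fold change −2.23 ± 0.17, adjusted p = 1.2e-08). Lct, the lactase gene (chr1:128284756-128328318), had 31.1 and 50.1 CPM in vDG against 165 and 178 CPM in dDG (log2 fold change −2.07 ± 0.16, adjusted p = 1.6e-08). Trhr, the receptor for thyrotropin-releasing hormone (chr15:44196135-44235912), had 23.6 and 15.1 CPM in vDG against 0.122 and 0.343 CPM in dDG (log2 fold change 6.41 ± 0.36, adjusted p = 1.4e-10). Tyro3, a receptor tyrosine kinase (chr2:119797733-119818104), had 4.90 and 5.25 CPM in vDG against 1.84 and 2.5 CPM in dDG (log2 fold change 1.24 ± 0.28, adjusted p = 0.0038). The 4 calls held without any 1 library. The regions did not overlap for any of the 4, which was also the case for 58.1% of all tested genes. The dDG libraries held 3 and 7 reads of Trhr. Lct and Trhr check the region labels and are no finding of their own. Dsp and Tyro3 served the study as markers of dentate gyrus and CA tissue. The other genes of the granule cell list below lay between −0.83 (Grm2) and 0.28 (Slc17a7). The fall of Dsp alone therefore does not give the dentate gyrus content of the pieces. The part of tissue content in the other regional differences was not tested.

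Across all genes, 2642 were called, which is 17.0% of those tested: 1328 were higher in vDG (8.56%) and 1314 lower (8.47%). An unadjusted p below 0.05 was reached by 4694 genes. The differences were asymmetric in size. At least 2-fold changes were found for 472 genes higher and 220 lower in vDG, and at least 4-fold changes for 146 higher and 50 lower. Called genes differed by a median of 0.64 on the log2 scale, irrespective of sign, and the signed median over all tested genes was 0.01. With scaling by library size alone, which moved that median to 0.08, 1778 genes were called higher and 943 lower. Without dDG replicate 2 the calls fell to 794 higher and 634 lower, and 51.8% of the 2642 calls remained. Without vDG replicate 1, 951 were higher and 1034 lower, and 66.3% remained. No called gene changed sign when any 1 library was left out.

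**Figure D1:**
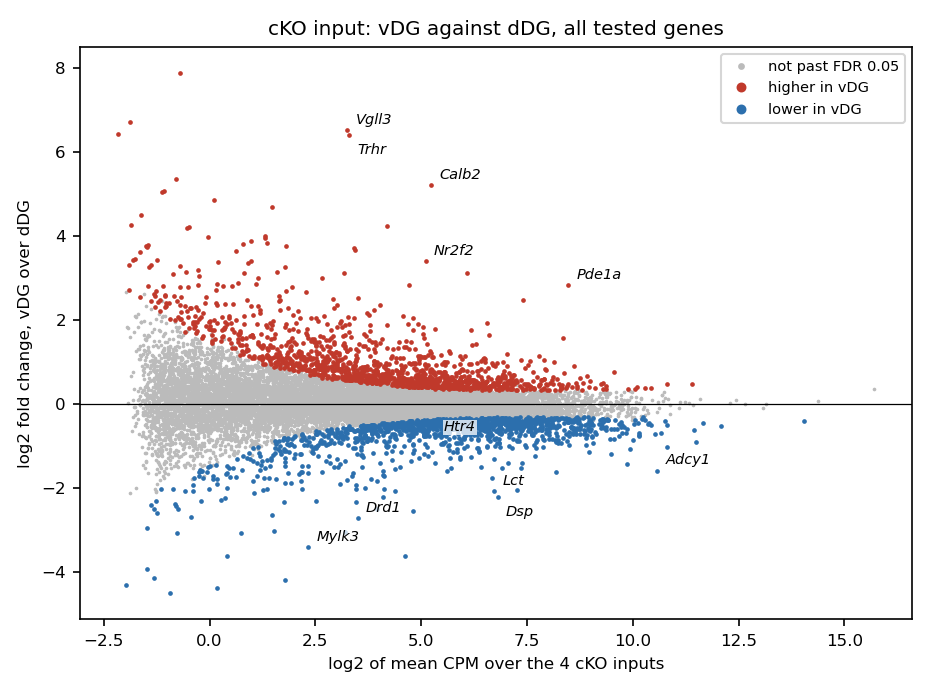
Each point is 1 of the 15505 tested genes in the cKO inputs, with the log2 of its mean CPM over the 4 libraries on the x axis and the log2 fold change, vDG over dDG, on the y axis. Red points are the 1328 genes called higher in vDG and blue points the 1314 called lower, and the largest differences lie on the ventral side.

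The genes with the largest ventral excess were taken from called genes with a mean of at least 5 CPM whose regions did not overlap. Vgll3, a cofactor of TEAD transcription factors, had 24.1 and 13.7 CPM in vDG against 0.245 and 0.147 CPM in dDG (log2 fold change 6.52 ± 0.38, adjusted p = 2.1e-10). Its dDG libraries held 6 and 3 reads. Calb2, which encodes the calcium-binding protein calretinin and in the mouse hilus marks ventral mossy cells, had 81.0 and 66.2 CPM in vDG against 2.49 and 1.37 CPM in dDG (log2 fold change 5.22 ± 0.20, adjusted p = 8.8e-13). Nr2f2, the nuclear receptor COUP-TFII, had 66.1 and 59.6 CPM in vDG against 6.57 and 5.24 CPM in dDG (log2 fold change 3.40 ± 0.16, adjusted p = 5.1e-12). Pde1a, a calmodulin-dependent phosphodiesterase that breaks down cyclic nucleotides, was the most abundant of the set with 634 and 616 CPM in vDG against 78.3 and 98.3 CPM in dDG (log2 fold change 2.83 ± 0.13, adjusted p = 4.3e-12).

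Further members of the ventral set were Cpne7, a calcium-dependent phospholipid-binding protein, at 4.23, and Nkd2, an inhibitor of Wnt signalling that binds Dishevelled, at 3.71. Scml4, a Polycomb-group relative, was at 3.67 and Npr3, the clearance receptor for natriuretic peptides, at 3.13. Crym, a thyroid hormone-binding protein, was at 3.11 with 128 and 116 CPM in vDG against 15.3 and 12.9 CPM in dDG. Trpc7, a calcium-permeable cation channel, was at 3.0 and the kinase gene Stk32b at 2.85. All 12 genes were also called higher in WT vDG, with log2 fold changes from 2.36 to 7.76.

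On the dorsal side 12 genes were chosen by the same rule. Mylk3, a myosin light chain kinase, had 0.955 and 0.761 CPM in vDG against 9.34 and 8.96 CPM in dDG (log2 fold change −3.41 ± 0.28, adjusted p = 3e-08). Pla2g2f, a secreted phospholipase A2, had 1.83 and 2.06 CPM in vDG against 18.2 and 14.5 CPM in dDG (log2 fold change −3.07 ± 0.22, adjusted p = 7.6e-09). Drd1, the Gs-coupled dopamine D1 receptor, had 2.15 and 3.73 CPM in vDG against 19.5 and 19.7 CPM in dDG (log2 fold change −2.73 ± 0.22, adjusted p = 3.1e-08).

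Inhba, the activin A subunit, had 5.81 and 6.28 CPM in vDG against 24.9 and 31.4 CPM in dDG (log2 fold change −2.21 ± 0.17, adjusted p = 2.1e-08). Nhlh1, a basic helix-loop-helix transcription factor, had 7.48 and 8.37 CPM in vDG against 34.1 and 33.3 CPM in dDG (log2 fold change −2.09 ± 0.16, adjusted p = 1.1e-08). Prkcd, protein kinase C delta, was at −2.5. It is also expressed strongly in thalamus, of whose 7 tested markers it was the 1 called lower. Blnk, an adaptor of B cell receptor signalling, was at −2.31, Card6 at −2.33 and Fam101b, a regulator of actin filaments now called Rflnb, at −2.55. The remaining member is the feature abParts at −3.63, a UCSC name that groups antibody gene segments, so its source gene is uncertain. These 12 genes, Dsp and Lct among them, were called lower in WT vDG too.

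**Figure D2:**
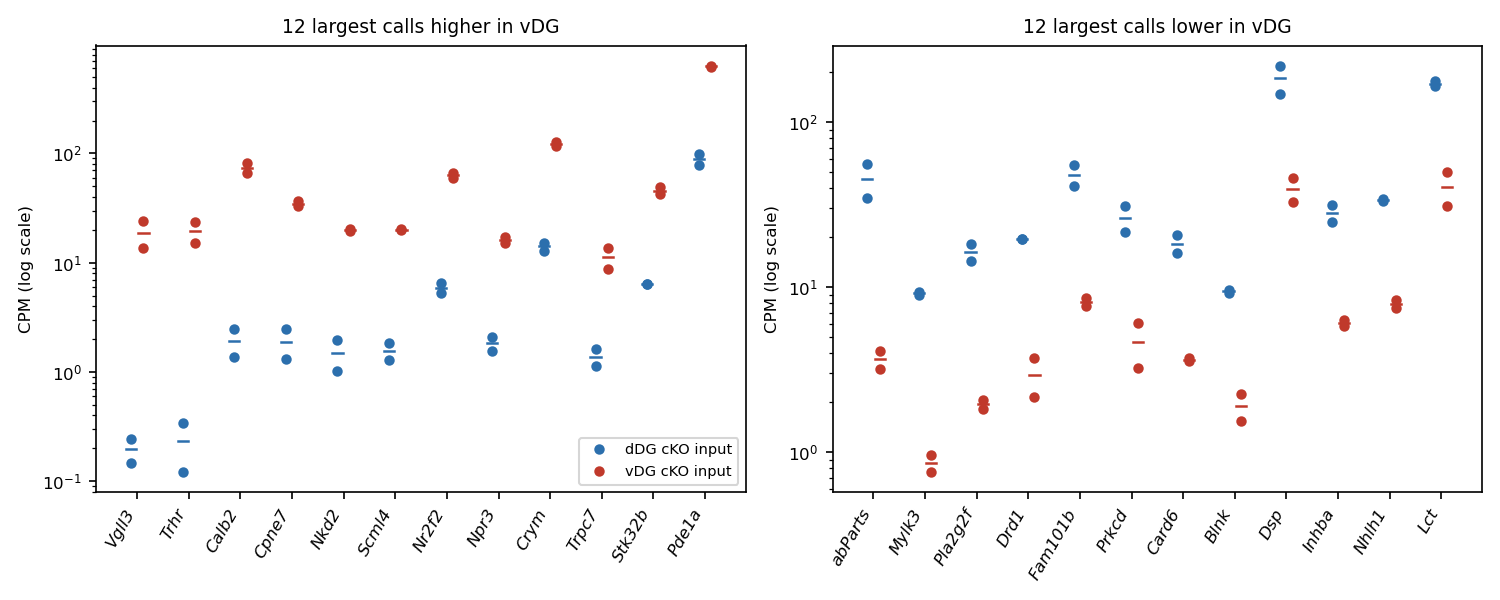
CPM on a log axis in each of the 4 cKO inputs for the 12 genes with the largest called excess in vDG (left) and in dDG (right). Points are libraries and bars the means of 2, and the points of the 2 regions do not overlap for any gene because the genes were chosen that way.

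Promoter sequence was examined for the same 24 genes because they moved together by region. RefSeq start sites (GRCm38.p6) were listed for 7 of the 12 ventral and 9 of the 12 dorsal genes. The 250 bases before the first start listed for a gene were searched on both strands. Pde1a had 4 starts listed and Mylk3, Drd1 and Prkcd 2 each, and their further starts were not searched. The motifs were AGGTCA, the half-site of nuclear receptors such as COUP-TFII, TGACGTCA, the cAMP response element, and CAGATG, an E-box bound by NeuroD proteins. None of the 7 ventral genes searched held any of them. Among the 9 dorsal genes searched, 3 held the E-box and 1 of these also the half-site. These 3 are shown because they carry the matches, each 5′ to 3′ on the gene's strand, with the matched letters of either strand in capitals.
Pla2g2f: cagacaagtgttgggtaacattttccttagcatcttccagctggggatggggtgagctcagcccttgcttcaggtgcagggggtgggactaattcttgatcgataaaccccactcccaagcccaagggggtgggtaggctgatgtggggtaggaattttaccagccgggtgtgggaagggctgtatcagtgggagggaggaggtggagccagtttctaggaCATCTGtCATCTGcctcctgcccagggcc
Nhlh1: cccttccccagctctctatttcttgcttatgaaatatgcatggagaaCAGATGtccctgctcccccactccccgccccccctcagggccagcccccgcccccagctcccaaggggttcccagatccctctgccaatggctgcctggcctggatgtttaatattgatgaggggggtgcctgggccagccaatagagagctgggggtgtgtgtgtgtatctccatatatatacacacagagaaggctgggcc
Blnk: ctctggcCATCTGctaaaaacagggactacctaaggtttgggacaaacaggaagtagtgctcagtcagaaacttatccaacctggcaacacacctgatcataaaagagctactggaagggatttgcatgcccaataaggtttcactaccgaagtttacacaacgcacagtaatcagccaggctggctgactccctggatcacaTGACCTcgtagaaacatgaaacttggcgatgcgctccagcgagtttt
The windows lie at chr4:138757599-138757848 on the minus strand (Pla2g2f), chr1:172057597-172057846 on the minus strand (Nhlh1) and chr19:40994222-40994471 on the minus strand (Blnk). Pla2g2f has a pair of E-boxes and Blnk an E-box and a half-site, and no matches of different motifs overlap. Over all called genes the E-box was present in 11.96% of 945 promoters of genes called higher in vDG, in 8.68% of 956 called lower and in 9.97% of all 10919 tested. The half-site was in 9.63%, 10.15% and 10.23%, and the cAMP response element in 2.01%, 2.51% and 2.73%. A match is a description of letters and no evidence of binding, and a window without one says nothing of the factor.

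The 6 most abundant genes called higher in vDG were Lars2, Vamp2, Ywhag, Ywhah, Vsnl1 and Gnao1, with log2 fold changes between 0.36 and 0.48. For Lars2, a mitochondrial leucyl-tRNA synthetase, the WT log2 fold change had the other sign, −0.38 (adjusted p = 0.088). Vamp2, a core protein of synaptic vesicle fusion, was higher in both vDG libraries (log2 fold change 0.47 ± 0.11, adjusted p = 0.0044). The 6 most abundant genes called lower were Malat1, Map1b, Camk2a, Ppp3ca, Slc1a2 and Chn1. Ppp3ca, the catalytic subunit of the calcium-dependent phosphatase calcineurin, had 1818 and 2164 CPM in vDG against 3483 and 4040 CPM in dDG (log2 fold change −0.92 ± 0.12, adjusted p = 1.3e-05). Camk2a, a calcium-dependent kinase of the postsynaptic density, had 2610 and 2802 CPM in vDG against 3353 and 4138 CPM in dDG (log2 fold change −0.47 ± 0.12, adjusted p = 0.0081). For Slc1a2, the main glutamate transporter of astrocytes, the dDG libraries themselves differed, with 2318 and 2057 CPM in vDG against 2659 and 4098 CPM in dDG (log2 fold change −0.63 ± 0.15, adjusted p = 0.0049).

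Of 16 granule cell genes, 10 were lower in vDG (62.5%, against 8.47% of all genes) and none was higher. The median log2 fold change was −0.42, and the summed level was 3893 and 4001 CPM in vDG against 5376 and 5426 CPM in dDG. Prox1, the homeobox gene that maintains granule cell fate, had 729 and 713 CPM in vDG against 1077 and 1037 CPM in dDG (log2 fold change −0.55 ± 0.11, adjusted p = 0.00099). Neurod2, a neuronal basic helix-loop-helix factor, was at −0.72, Lrrtm4, a postsynaptic adhesion protein of granule cells, at −0.83, Grm2, a presynaptic glutamate receptor, at −0.83 and Stxbp6 at −0.77. Calb1, the calbindin gene of mature granule cells, did not pass the test (230 and 246 CPM in vDG against 236 and 227 CPM in dDG, log2 fold change 0.04 ± 0.11, adjusted p = 0.85). With any 1 library left out, 8 members were called lower and none higher, and with library size scaling alone 8 were lower and 1 higher.

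Of 5 genes of hilar mossy cells, Calb2 (above) and Csf2rb2 were higher in vDG (40%), and Nmb was lower (20%). Csf2rb2, a cytokine receptor subunit, had 2.39 and 2.13 CPM in vDG against 0.286 and 1.13 CPM in dDG (log2 fold change 1.71 ± 0.50, adjusted p = 0.02), and Nmb, neuromedin B, had 0.876 and 1.41 CPM in vDG against 2.73 and 3.18 CPM in dDG (log2 fold change −1.36 ± 0.37, adjusted p = 0.014). Drd2, the dopamine D2 receptor that marks mossy cells, was at 3.14 and 3.24 CPM in vDG against 1.67 and 2.06 CPM in dDG and did not pass the test (adjusted p = 0.098). Calcrl, the receptor shared by calcitonin gene-related peptide and adrenomedullin, was at −0.01 (6.05 and 5.52 CPM in vDG against 5.67 and 6.03 CPM in dDG). Nmb was not called without vDG replicate 1 or dDG replicate 2, and 1 gene was called higher without dDG replicate 1.

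Among interneuron genes 9 of 21 rose in vDG (42.9%, against 8.56% of all genes) and none fell. Their summed level was 1156 and 1071 CPM in vDG against 760.1 and 850.9 CPM in dDG. Kit, a receptor tyrosine kinase of some interneurons, had 22.5 and 26.3 CPM in vDG against 4.41 and 6.07 CPM in dDG (log2 fold change 2.23 ± 0.19, adjusted p = 5.3e-08). Sst, somatostatin, had 37.4 and 28.4 CPM in vDG against 10.6 and 13.3 CPM in dDG (log2 fold change 1.46 ± 0.17, adjusted p = 2.9e-06). Htr3a, the ionotropic serotonin receptor subunit of one interneuron class, was at 1.07, Dlx1, a homeobox gene of the interneuron lineage, was at 1.0, and Slc32a1, the vesicular GABA transporter, was at 0.64. Cck, Cnr1 and Lamp5 were at 0.80, 0.66 and 0.58. The GABA-synthesizing enzymes Gad1 (−0.14) and Gad2 (0.24) did not pass the test, nor did Pvalb (0.01) and Reln (−0.01). In WT 14 were higher and none lower. Without vDG replicate 1 of the cKO 5 were called, and without dDG replicate 1 or dDG replicate 2 it was 6 each.

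Pyramidal cell genes of the neighbouring CA fields were detected in both regions. Of 9 CA1 and subiculum genes tested, 4 were higher in vDG (44.4%) and 1 lower (11.1%), against 8.56% and 8.47% of all genes. Wfs1, a CA1 marker that encodes wolframin, had 24.0 and 21.0 CPM in vDG against 11.2 and 16.1 CPM in dDG (log2 fold change 0.73 ± 0.17, adjusted p = 0.006), and Fibcd1, a marker of dorsal CA1, had 2.07 and 3.12 CPM in vDG against 4.89 and 5.14 CPM in dDG (log2 fold change −0.95 ± 0.28, adjusted p = 0.022). Of 12 CA2 and CA3 genes, Amigo2 (1.36), Rgs14 (0.71) and Grik4 (0.63) were higher (25%). Cacng5 (−1.51) was lower (8.33%, near the share over all genes). The summed CA2 and CA3 levels were 275.1 and 290.7 CPM in vDG against 189.5 and 257.4 CPM in dDG. Without vDG replicate 1 or dDG replicate 2 none of the CA1 and subiculum genes was called lower, and without dDG replicate 1 it was 2 that were called higher. The part of CA tissue in the regional differences was not tested.

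Genes of progenitors and immature neurons moved in both directions, with 3 of 16 higher (18.8%) and 4 lower (25%), against 8.56% and 8.47% of all genes. Mki67, a marker of dividing cells, had 3.66 and 5.60 CPM in vDG against 11.5 and 11.5 CPM in dDG (log2 fold change −1.31 ± 0.22, adjusted p = 0.00022), and Dcx, doublecortin of immature neurons, had 68.1 and 64.6 CPM in vDG against 97.9 and 94.0 CPM in dDG (log2 fold change −0.53 ± 0.11, adjusted p = 0.0025). Igfbpl1 (−2.02) and Draxin (−1.60), with at most 0.979 and 1.43 CPM in any of the 4 libraries, were lower as well. In WT, Mki67 was at −0.54 (adjusted p = 0.051, edgeR) and Dcx at −0.16 (adjusted p = 0.68, edgeR), neither of them called. Of the called members of this list, 2 were called in the same direction in WT. Hes5, a Notch target of neural stem cells, rose (6.05 and 5.33 CPM in vDG against 2.94 and 2.25 CPM in dDG, log2 fold change 1.12 ± 0.26, adjusted p = 0.0047), as did Stmn1 (0.53) and Dpysl3 (0.41), cytoskeletal genes that many neurons express. Top2a, Sox4, Sox11, Tubb2b, Tac2, Nes, Nr2e1 and Eomes did not pass the test. Without dDG replicate 2 none of the list was called higher and 2 were called lower, and 2 were called lower without vDG replicate 2 or dDG replicate 1. Higher and lower calls numbered 2 and 2 with DESeq2, 1 and 1 with all 10 inputs in one fit and 0 and 1 with all 15 libraries.

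Of 16 oligodendrocyte genes, 4 fell in vDG (25%, against 8.47% of all genes) and none rose. Mal had 16.9 and 20.9 CPM in vDG against 32.9 and 41.6 CPM in dDG (log2 fold change −0.98 ± 0.15, adjusted p = 0.00011), and Ermn (−0.70) and Mobp (−0.60) were lower as well, all genes of mature myelinating cells. Mbp, myelin basic protein, did not pass the test (192 and 224 CPM in vDG against 205 and 196 CPM in dDG, log2 fold change 0.05 ± 0.11, adjusted p = 0.8). Of 14 astrocyte genes, Slc4a4, a sodium bicarbonate cotransporter (−0.87), Slc1a2 (−0.63) and Aqp4, the aquaporin of astrocyte endfeet (−0.58), fell (21.4%). Aldoc (0.40) rose (7.14%, near the share over all genes). In WT, Slc4a4 (−0.60) and Aldoc (0.46) were called in the same direction, while Slc1a2 (0.04) and Aqp4 (0.03) did not pass the test. The summed astrocyte level was 3467 and 3184 CPM in vDG, and 3847 and 5519 CPM in dDG. No microglial (11 tested) or endothelial and mural gene (13 tested) was called. With vDG replicate 1 left out, 5 astrocyte genes were lower and 2 higher, 1 microglial gene was lower and 1 endothelial or mural gene higher. Without dDG replicate 1, 6 astrocyte genes were lower and none higher, and without vDG replicate 2, 1 oligodendrocyte gene was higher. P2ry12, a purinergic receptor of microglia, had 5.45 and 3.88 CPM in vDG against 7.30 and 7.20 CPM in dDG. Of 12 meningeal genes Ogn alone was called (1.18), with 2 higher without vDG replicate 1 or dDG replicate 1, and 1 higher and 2 lower without vDG replicate 2, and Nwd2, the 1 tested marker of the medial habenula, was higher (0.75).

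**Figure D3:**
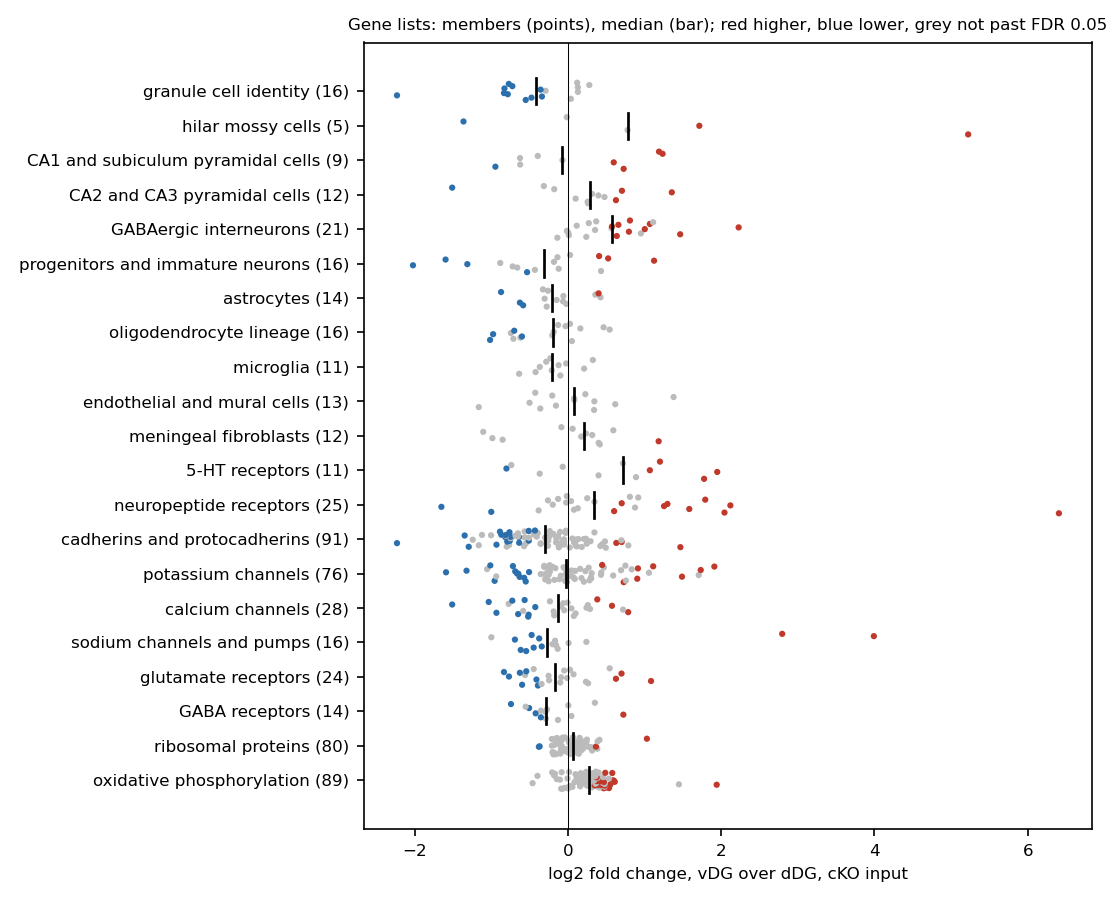
Log2 fold changes, vDG over dDG, of the tested members of 21 gene lists in the cKO inputs, with the number tested in parentheses. Red and blue points passed the test, grey points did not, and the black bar is the median, which was 0.58 for interneurons, −0.42 for granule cell genes and 0.28 for oxidative phosphorylation.

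Positional genes, a list of 21 taken from known dorsoventral markers of the hippocampus, gave 13 higher (61.9%) and 3 lower (14.3%). Beside Trhr, Calb2 and Nr2f2, the ventral side held Nnat, the imprinted gene neuronatin (321 and 252 CPM in vDG against 57.2 and 45.4 CPM in dDG, log2 fold change 2.48 ± 0.14, adjusted p = 1.4e-10), and Efnb2, an ephrin ligand (30.7 and 23.3 CPM in vDG against 4.61 and 5.98 CPM in dDG, log2 fold change 2.36 ± 0.19, adjusted p = 2.9e-08). Grp, gastrin-releasing peptide (2.29), Oxtr, the oxytocin receptor (2.04), and Htr2c (1.95) were further ventral members. Dorsal members were Lct, Cadm2, a synaptic adhesion molecule (−0.93), and Gsg1l, an auxiliary subunit of AMPA receptors (−0.86). All 16 called members were called in the same direction in WT.

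Among transcription factors of cortical patterning, 13 of 42 rose (31.0%) and 6 fell (14.3%) in vDG, against 8.56% and 8.47% of all genes. Nr2f1, the close relative of Nr2f2, was at 0.80, Fezf2, a selector of deep-layer projection neurons, at 1.34 and the ETS factor Etv1 at 0.85. Tbr1 (−0.83), Bcl11b, which encodes CTIP2 (−0.81), Zbtb20 (−0.72), Klf9 (−0.56) and Foxp2 (−1.46) were on the dorsal side. The Wnt list had 5 of 39 higher (12.8%) and 3 lower (7.69%), near the shares over all genes. Its extremes were the ligands Wnt4 (7.56 and 4.49 CPM in vDG against 1.02 and 0.833 CPM in dDG, log2 fold change 2.69 ± 0.34, adjusted p = 8.9e-06) and Wnt9a (3.26 and 6.85 CPM in vDG against 19.7 and 21.1 CPM in dDG, log2 fold change −2.01 ± 0.24, adjusted p = 4.2e-06), which pointed in opposite directions. The secreted Wnt antagonist Frzb was at 1.38 and the agonist Rspo2 at 1.07. Wnt genes called higher numbered 8 without vDG replicate 2 and 3 without dDG replicate 1, and 1 was called lower without dDG replicate 2.

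Axon guidance genes divided evenly, 12 of 66 higher and 12 lower (18.2% each), against 8.56% and 8.47% of all genes. Ntn5, a netrin-family gene, was the most ventral (7.16 and 5.86 CPM in vDG against 0.326 and 0.637 CPM in dDG, log2 fold change 3.78 ± 0.36, adjusted p = 2.6e-07). Of 7 ephrin ligands tested, Efnb1 (1.37), Efnb2 and Efnb3 (0.55) were higher in vDG, and the others, at −0.44 (Efna5) to 0.21 (Efna3), did not pass the test. Of 12 Eph receptors, Epha7 (−1.61), Epha5 (−1.28), Epha4 (−0.88) and Ephb1 (−0.81) were lower, and the others, at −0.58 (Epha10) to 1.16 (Epha8), did not pass. Epha7 had 133 and 152 CPM in vDG against 379 and 493 CPM in dDG (log2 fold change −1.61 ± 0.13, adjusted p = 2.4e-08). Slit2, a repellent ligand, was at 1.08. Among Robo receptors Robo2 (−0.57) and Robo3 (−2.33) were lower in vDG, and Robo1 was at 0.15 (adjusted p = 0.44). Semaphorins were found on both sides, Sema4g (1.26) and Sema3e (0.48) ventrally and Sema3c (−1.90), Sema5a (−1.14), Sema7a (−1.09) and Sema6d (−0.89) dorsally.

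In the list of cadherins and protocadherins, mainly calcium-dependent adhesion molecules, 18 of 91 fell (19.8%) and 3 rose (3.30%) in vDG. Over all genes 8.47% fell and 8.56% rose. Of the list 70 did not pass the test, and the median was −0.30. The 18 that fell include Dsp, a desmosomal linker that is no cadherin. Cdh8 had 41.8 and 42.5 CPM in vDG against 74.2 and 86.9 CPM in dDG (log2 fold change −0.93 ± 0.12, adjusted p = 1.6e-05), and Cdh13, an atypical cadherin without a transmembrane part, rose (43.5 and 35.3 CPM in vDG against 13.2 and 15.4 CPM in dDG, log2 fold change 1.47 ± 0.15, adjusted p = 7.8e-07). Members of the clustered protocadherins made up 11 of the 18. These genes lie in arrays of near-identical or overlapping genes, where the counting could split reads, so the single genes are uncertain. In WT the same list had 10 higher and 9 lower with a median of −0.01. Without dDG replicate 2, 8 were called lower and 2 higher. Without vDG replicate 1, vDG replicate 2 and dDG replicate 1 the numbers higher were 1, 5 and 1 and the numbers lower 22, 15 and 19.

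Serotonin receptors were found on both sides. Of 11 tested, 4 rose in vDG (36.4%) and Htr4 fell (9.09%), against 8.56% and 8.47% of all genes. Htr1a, the Gi-coupled receptor that inhibits granule cells, had 68.5 and 55.9 CPM in vDG against 18.6 and 17.7 CPM in dDG (log2 fold change 1.78 ± 0.14, adjusted p = 1.6e-08). Htr7, which like 5-HT4R couples to Gs, had 4.18 and 4.03 CPM in vDG against 1.71 and 1.86 CPM in dDG (log2 fold change 1.2 ± 0.30, adjusted p = 0.0078). Htr2c, a Gq-coupled receptor, had 2.07 and 2.06 CPM in vDG against 0.612 and 0.441 CPM in dDG (log2 fold change 1.95 ± 0.46, adjusted p = 0.0054), and Htr3a had 7.24 and 4.83 CPM in vDG against 3.22 and 2.5 CPM in dDG (log2 fold change 1.07 ± 0.27, adjusted p = 0.0084). Htr5a had 17.3 and 17.8 CPM in vDG against 15.9 and 20.9 CPM in dDG (95% interval of the log2 fold change −0.41 to 0.27), and Htr1f, Htr2a, Htr2b, Htr5b and Htr6 did not pass the test. Without dDG replicate 2 the calls higher in vDG were reduced to 2. The WT inputs gave log2 fold changes of 1.65 for Htr1a, 1.58 for Htr7, 1.69 for Htr2c and 1.53 for Htr3a.

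Of 4 dopamine receptors tested, 3 were lower in vDG. Beside Drd1, Drd5, the other Gs-coupled receptor, had 4.50 and 6.09 CPM in vDG against 9.79 and 10.3 CPM in dDG (log2 fold change −0.92 ± 0.21, adjusted p = 0.004). Drd3, the gene whose regulatory sequence drives the Cre transgene, had 0.955 and 0.837 CPM in vDG against 1.92 and 2.55 CPM in dDG (log2 fold change −1.31 ± 0.41, adjusted p = 0.033), and in WT its log2 fold change was −1.34 (adjusted p = 0.02). The muscarinic receptor Chrm4 was ventral (3.18 and 1.71 CPM in vDG against 0.449 and 0.784 CPM in dDG, log2 fold change 2.0 ± 0.47, adjusted p = 0.0048). The other 9 of 13 dopamine, adrenergic and muscarinic receptors did not pass the test. With DESeq2, or with all 10 inputs or all 15 libraries in one fit, 2 of the 13 were called lower. Chrm4 was not called without vDG replicate 1.

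**Figure D4:**
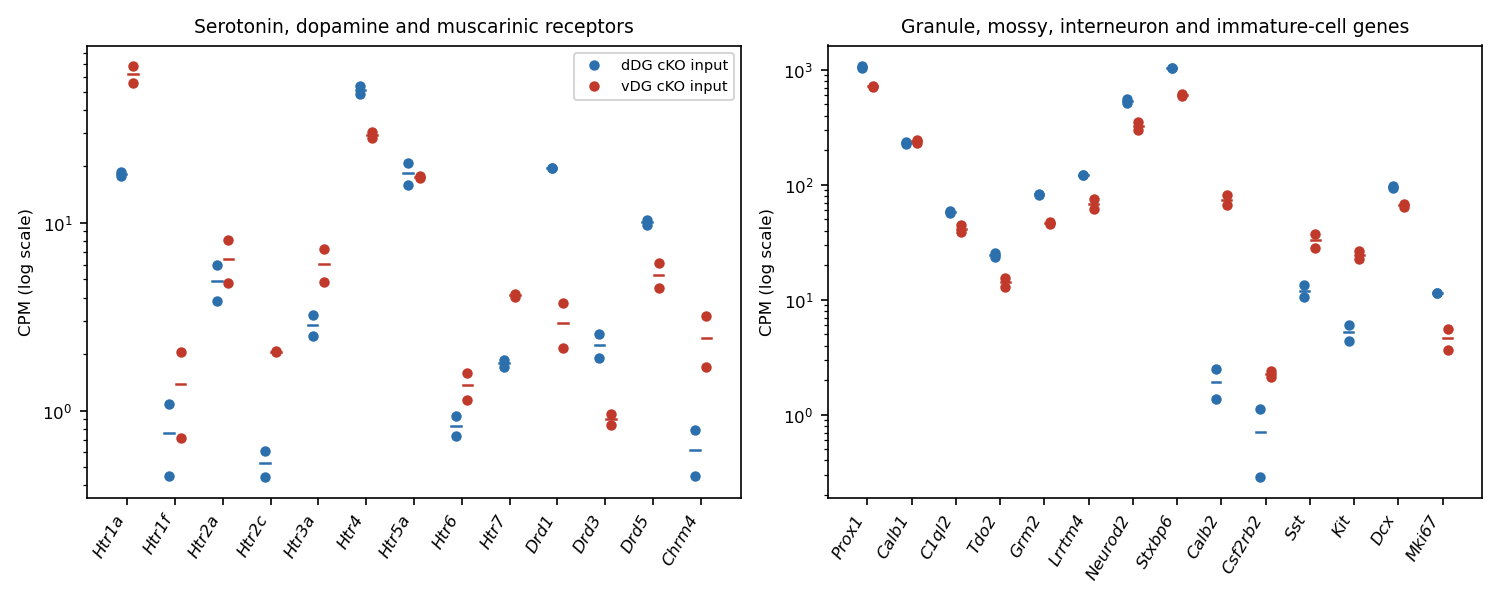
CPM on a log axis in each of the 4 cKO inputs for monoamine and muscarinic receptors (left) and for genes of granule cells, mossy cells, interneurons and immature cells (right). Points are libraries and bars the means of 2, and Htr1a lies higher in vDG while Htr4, Drd1, Drd3 and Drd5 lie lower.

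Downstream of these receptors, 5 of 37 genes of cAMP signalling rose (13.5%) and 8 fell (21.6%) in vDG, against 8.56% and 8.47% of all genes. Adcy1, the calcium-stimulated adenylyl cyclase of granule cells, had 703 and 815 CPM in vDG against 2052 and 2529 CPM in dDG (log2 fold change −1.59 ± 0.12, adjusted p = 1.6e-08), whereas Adcy8, another calcium-stimulated cyclase, was higher (1.21). Adcy2 (−0.77), Adcy9 (−0.61) and Prkar2b, a regulatory subunit of protein kinase A (−0.59), were lower. Among phosphodiesterases, Pde1a, Pde1c (1.07), Pde4b (0.47) and Pde4d (0.42) were higher and Pde7a (−0.40) and Pde8b (−0.49) lower. The median of the list was 0.02. With all 15 libraries in one fit, 1 gene was called higher and 6 lower, and with all 10 inputs it was 3 and 6. The balance turned with the trend on exonic length removed, at 9 higher and 5 lower. It was 8 and 6 with library size scaling alone and 7 and 7 with the GC trend removed. Without vDG replicate 1 or dDG replicate 1, 3 were called higher, and without dDG replicate 2, 5 were called lower.

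In the stress hormone axis 3 of 9 genes rose and 3 fell, and 3 were called in each direction without any 1 library. Nr3c1, the glucocorticoid receptor, had 77.6 and 81.0 CPM in vDG against 110 and 109 CPM in dDG (log2 fold change −0.47 ± 0.11, adjusted p = 0.0061), and Nr3c2, the mineralocorticoid receptor, had 165 and 162 CPM in vDG against 238 and 259 CPM in dDG (log2 fold change −0.60 ± 0.11, adjusted p = 0.00053). Sgk1, a kinase induced by glucocorticoids, was at −0.63, whereas Tsc22d3, also glucocorticoid-induced, was at 0.97. Crhr1, the main receptor of corticotropin-releasing hormone, had 4.66 and 3.50 CPM in vDG against 1.39 and 1.42 CPM in dDG (log2 fold change 1.54 ± 0.32, adjusted p = 0.002), and Crhbp, which binds that hormone, had 2.55 and 2.51 CPM in vDG against 0.816 and 0.882 CPM in dDG (log2 fold change 1.57 ± 0.39, adjusted p = 0.0078). In WT the log2 fold changes of Crhr1 and Crhbp were 0.41 (adjusted p = 0.35) and 0.90 (adjusted p = 0.066). The cKO calls in each direction were 33.3% of the list, against 8.56% higher and 8.47% lower over all genes.

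Neuropeptides and growth factors had 6 of 22 higher and 6 lower (27.3% each), against 8.56% and 8.47% of all genes. Grp had 13.0 and 12.6 CPM in vDG against 3.02 and 2.16 CPM in dDG (log2 fold change 2.29 ± 0.22, adjusted p = 3.8e-07), and Adcyap1, which encodes the peptide PACAP, had 7.28 and 6.78 CPM in vDG against 1.63 and 1.37 CPM in dDG (log2 fold change 2.22 ± 0.27, adjusted p = 6e-06). Penk, the enkephalin precursor, had 8.00 and 5.71 CPM in vDG against 25.7 and 29.9 CPM in dDG (log2 fold change −2.02 ± 0.18, adjusted p = 1.1e-07), and Bdnf was at −0.84. Of 25 peptide receptors 9 rose (36%) and 2 fell (8%, near the share over all genes). Grpr, the receptor of Grp, was at 1.58, and the somatostatin receptors Sstr1, Sstr3 and Sstr4 were at 2.12, 1.3 and 0.70, with Sstr2 at −0.20, not past the test. Oprd1, the delta opioid receptor, was lower (−1.65), while Oprm1, the mu receptor, was at 0.88 and did not pass. Adcyap1r1 at 0.04 and Nmbr at 0.13, receptors of PACAP and neuromedin B, did not pass either. Npy1r was lower (−1.0) and Npy2r higher (0.60). Of the receptors, 6 were called higher and 4 lower without vDG replicate 1, and 5 higher without dDG replicate 1.

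Of 76 potassium channel genes 8 rose (10.5%) and 12 fell (15.8%), against 8.56% and 8.47% of all genes. Kcnq5, a subunit of the M-current, had 49.5 and 46.8 CPM in vDG against 11.6 and 14.1 CPM in dDG (log2 fold change 1.91 ± 0.14, adjusted p = 1.2e-08), and Kcnk1, a leak channel, had 64.2 and 56.2 CPM in vDG against 143 and 159 CPM in dDG (log2 fold change −1.32 ± 0.12, adjusted p = 1.2e-07). Kcnj2, an inward rectifier, had 14.7 and 33.7 CPM in vDG against 71.0 and 75.2 CPM in dDG (log2 fold change −1.59 ± 0.22, adjusted p = 2.9e-05). Of 16 sodium channel and pump genes, Scn7a (3.99) and Scn9a (2.80) rose (12.5%) and 7 fell (43.8%), among them Scn3a (−0.69) and Scn8a (−0.47). Of 28 calcium channel genes 3 rose (10.7%) and 9 fell (32.1%). In WT 15 potassium channel genes were higher and 8 lower. For sodium channels and pumps the WT counts were 4 and 1, and for calcium channels 4 and 4. Itpr1, the main IP3 receptor of neurons, had 113 and 122 CPM in vDG against 218 and 264 CPM in dDG (log2 fold change −1.03 ± 0.12, adjusted p = 2.9e-06), and Cacna1h, a low-threshold channel, was at −0.93. Without dDG replicate 2, 2 sodium channel and pump genes were called lower and 2 higher. Potassium channel genes called higher numbered 5 without vDG replicate 1 and 13 without vDG replicate 2.

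Glutamate receptors had 3 of 24 higher (12.5%) and 7 lower (29.2%), against 8.56% and 8.47% of all genes, with a median of −0.17. In WT 5 were higher and 2 lower, with a median of 0.05. Grin2a, an NMDA receptor subunit, had 66.0 and 71.8 CPM in vDG against 107 and 128 CPM in dDG (log2 fold change −0.77 ± 0.12, adjusted p = 0.00012), and the AMPA receptor subunits Gria2 (−0.60) and Gria1 (−0.39) were lower too, while the kainate receptor subunits went both ways, with Grik1 (1.08) and Grik4 (0.63) higher and Grik3 (−0.41) lower. In WT Grin2a (−0.11), Gria2 (−0.10) and Gria1 (−0.13) did not pass the test, while Grik1, Grik4 and Grik3 were called in the same direction. GABA receptors had 1 of 14 higher (7.14%), Gabra3 (0.72), and 4 lower (28.6%), among them Gabra4 (−0.42). For GABA receptors the WT counts were 3 higher and 2 lower. The extracellular matrix list had 10 of 59 higher (16.9%) and 7 lower (11.9%), against 8.56% and 8.47% of all genes. Eln, elastin, was at 2.56, the collagens Col23a1 and Col12a1 were at 2.34 and 2.23 and the link protein Hapln4 was at 1.04. Acan, the proteoglycan aggrecan, had 0.597 and 0.457 CPM in vDG against 2.08 and 2.20 CPM in dDG (log2 fold change −2.01 ± 0.46, adjusted p = 0.004), and Ncan, Bcan, Vcan and Tnr were lower at −0.59 to −0.54. Without dDG replicate 2, 4 glutamate receptor genes were called lower and 1 higher, 2 GABA receptor genes lower and none higher, and 4 matrix genes lower. With vDG replicate 1 left out, 1 glutamate receptor gene was called higher, and the GABA receptors had 6 lower and none higher. Without vDG replicate 2 the GABA receptors had 2 lower and 2 higher, and without dDG replicate 1 a single glutamate receptor gene was called higher.

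Immediate early genes, which report recent neuronal activity, were mixed, with 4 of 14 higher (28.6%) and 3 lower (21.4%). Over all genes the shares were 8.56% and 8.47%. Nr4a1 (0.90), Dusp1 (0.91), Homer1 (0.61) and Nr4a2 (0.53) rose, and Egr3 (−0.36), Arc (−0.46) and Npas4 (−1.13) fell. Fos had 1.51 and 1.75 CPM in vDG against 2.24 and 1.81 CPM in dDG (log2 fold change −0.32 ± 0.37, adjusted p = 0.61) and Egr1 had 57.6 and 82.3 CPM in vDG against 65.1 and 65.1 CPM in dDG (log2 fold change 0.11 ± 0.14, adjusted p = 0.67). Without vDG replicate 1 0 of the list were called lower and 3 higher, and 1 was called lower without dDG replicate 2. DESeq2 called 1 lower and 4 higher, and no gene was called lower with library size scaling alone or with all 10 inputs or all 15 libraries in one fit.

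Genes of oxidative phosphorylation that were called lay on the ventral side. Cox6a2, the muscle form of a complex IV subunit, had 1.75 and 0.685 CPM in vDG against 0.286 and 0.343 CPM in dDG (log2 fold change 1.94 ± 0.61, adjusted p = 0.033). Of 89 tested, 19 rose in vDG (21.3%, against 8.56% of all genes) and none fell. A positive log2 fold change was found for 77, and the median was 0.28. This median was 0.14 to 0.42 when 1 library was left out and 0.13 with the trend on exonic length removed. Ndufa12, a subunit of complex I, had 45.8 and 34.8 CPM in vDG against 28.6 and 24.1 CPM in dDG (log2 fold change 0.61 ± 0.15, adjusted p = 0.0063) and Ndufa6, of the same complex, had 23.5 and 21.4 CPM in vDG against 16.2 and 13.5 CPM in dDG (log2 fold change 0.60 ± 0.16, adjusted p = 0.011). Cox4i1 of complex IV was at 0.48 and Atp5e of the ATP synthase at 0.54. In WT no member was called higher and 1 was called lower, with a median of −0.16. The cKO count of 19 moved with the processing when 1 library was left out. It was 8 with the trend on exonic length removed, which also left fewer genes to test. It was 2 with all 10 inputs in one fit, 1 with all 15 libraries and 30 with library size scaling alone. The cytoplasmic ribosomal protein genes had 2 of 80 higher and 2 lower (2.5% each) in the cKO with a median of 0.07. In WT 65 of them were lower and none higher, with a median of −0.52. Without vDG replicate 2 the cKO counts were 11 higher and 1 lower, without dDG replicate 1 they were 5 and 0, without vDG replicate 1 they were 1 and 2, and without dDG replicate 2 both were 0. With the GC trend removed they were 1 and 5 (median −0.02), with the length trend removed 1 and 8 (median −0.06) and with library size scaling alone 5 and 0.

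Called genes differed in length and base composition in the cKO. The median exonic length was 4163 bases for genes higher in vDG, 6547 bases for those lower and 4516 bases for all tested, and the median GC content was 47.9%, 42.9% and 45.8%. In WT the order was the other way round, with 5187 and 4800 bases and 45.2% and 46.6% GC for genes higher and lower. With the trend on GC content removed from each library, 1146 genes were called higher and 1106 lower in the cKO, and with the trend on length removed 1249 and 1212. The part of RNA quality in these differences was not tested.

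The same comparison was then read in WT, which shares no library with the cKO. There 15412 genes were tested and 15.3% called, 1427 higher (9.26%) and 938 lower (6.09%). Of the 2610 cKO calls that were tested in WT, 86.0% had the same sign there, against 64.3% of the 15130 genes tested in both. The ventral calls shared by both genotypes numbered 739, which is 56.7% of the cKO and 52.2% of the WT calls higher in vDG. The dorsal calls shared numbered 501, 38.4% of the cKO and 53.8% of the WT calls lower in vDG.

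**Figure D5:**
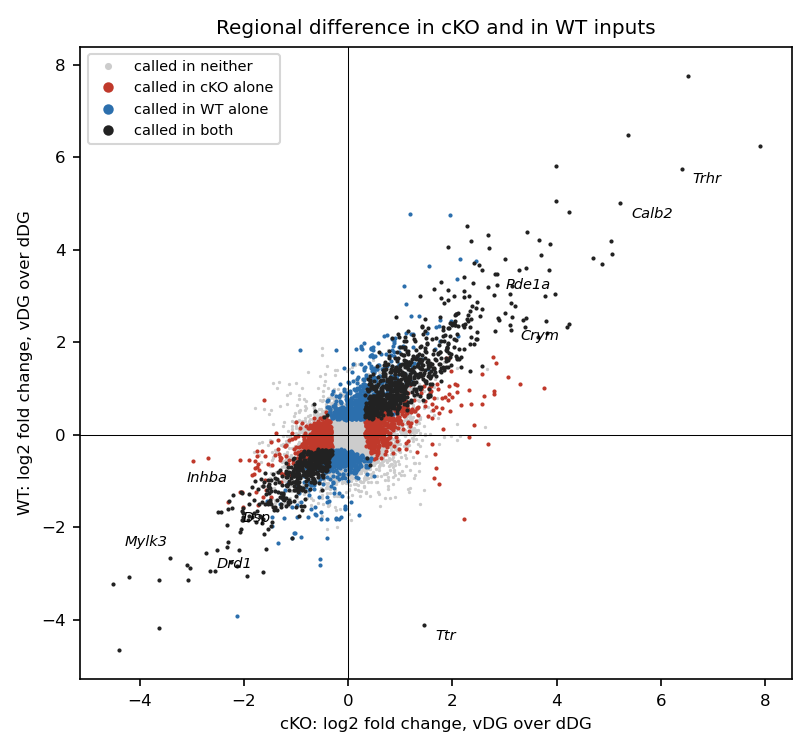
Log2 fold change, vDG over dDG, in the cKO inputs (x axis, 2 against 2 libraries) and in the WT inputs (y axis, 3 against 3) for the 15130 genes tested in both. Most of the large differences lie near the diagonal, and Ttr is far from it.

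The difference between the genotypes in the regional contrast was tested as an interaction over the 10 inputs. Of 16306 genes 0 were called, which is 0%, and 2010 had an unadjusted p below 0.05 (12.3%). The lowest adjusted p was 0.0997, and 12 genes were below 0.1. DESeq2 called 256 genes in the same model. In cKO and in WT the log2 fold changes were 6.41 and 5.75 for Trhr, 5.22 and 5.01 for Calb2, and 3.40 and 3.61 for Nr2f2. Chosen after their values were seen, Pde1a (2.83 in cKO and 3.47 in WT), Inhba (−2.21 and −1.3), Kcnq5 (1.91 and 3.14) and Wnt4 (2.69 and 4.32) had adjusted interaction p-values of 0.18, 0.18, 0.14 and 0.19 in edgeR.

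There were 7 genes called in both genotypes with opposite signs: Atf1, Chgb, Etfdh, Hspa4, Mphosph8, Rpl41 and Ttr. Of 16 alternative settings, the cKO call held in 7 for Etfdh, 9 for Rpl41, 10 for Atf1 and 11 for Mphosph8. It held in 12 for Ttr, 13 for Chgb and 14 for Hspa4. Ttr, transthyretin of the choroid plexus, had 4.90 and 11.9 CPM in vDG against 4.32 and 1.67 CPM in dDG in the cKO, and 3.15 to 5.08 CPM in WT vDG against 4.26, 75.1 and 125 CPM in WT dDG. Its rise in cKO vDG (log2 fold change 1.46 ± 0.36) was thus between low levels and was not called without vDG replicate 2, with DESeq2 or with all 10 inputs or all 15 libraries in one fit, and the opposite sign in WT rested on 2 dDG libraries. The other choroid plexus genes tested were Kl, Kcnj13, Prlr and Foxj1, of which Prlr was called, lower in vDG (−1.29). Chgb, the secretory granule protein chromogranin B, had 317 and 412 CPM in vDG against 439 and 706 CPM in dDG (log2 fold change −0.65 ± 0.16, adjusted p = 0.008), with a WT log2 fold change of 0.67 (adjusted p = 0.0026). Hspa4, a heat shock chaperone, was at −0.64 and 0.50, and Atf1, a transcription factor of the CREB family, at 0.42 and −0.66.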

How the data were processed

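RNA from the cleared lysate (input) of dissected dDG and vDG was amplified without molecular identifiers and sequenced. The authors trimmed the reads, aligned them to mm10 with STAR 2.4.2a, removed duplicates with SAMtools 0.1.19-444 and counted read pairs per gene with HTSeq in union mode at its defaults, which count by strand. The strand option itself is not named, and antisense and overlapping genes are held as uncertain. The deposited values are raw counts per gene and library. Summary rows, among them pairs on no gene (15.2 to 18.7% of all rows' total over the inputs), were left out. Further deposited tables hold the authors' fold changes, p-values and normalized counts of other comparisons, and these, with 25 columns of per-sample values, were not used. The percent GC content per gene in 1 of these tables, as deposited by the authors, was.

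Counts were scaled by TMM, filtered with filterByExpr and tested with edgeR 4.0.16 (R 4.3.3, limma 3.58.1) in a quasi-likelihood model of region, with Benjamini-Hochberg adjustment at 0.05. The cKO fit held 4 libraries, the WT fit 6 and the interaction fit all 10 inputs. CPM printed per library used TMM factors over the 10 inputs. DESeq2 1.42.0, other scalings, filters and sample sets, a GC correction, a replicate block and leaving out each library were the alternatives. Intervals cover counting and replicate error of these pools only. Removal of the length trend and of Rn45s and AK140265 was added after seeing the data.

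The comparison, its members and the gene lists were chosen with earlier results of these data known. Named genes were the 4 dissection markers and Htr4, the 12 genes with the largest called change in each direction (mean of at least 5 CPM, no overlap), the 6 most abundant called genes in each direction, and of each list up to 5 called members of largest change, or any member of lists of up to 16 genes. Other genes were named after their values were seen. Symbols were matched to GENCODE M21 for exonic length and position, found for 89.5% of the tested genes, and 90.6% had a GC content. Some members of the lists are counted but not reported here by name.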

Additional observations from a re-analysis of the deposited data

How the results depend on the processing

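In the cKO comparison the 2642 calls became 1703 with all 10 inputs in one fit, 1360 with all 15 libraries, 1452 at a threshold of 0.01 and 1428 to 3084 when 1 library was left out. The 1428 were found without dDG replicate 2. In the other settings without a replicate block they lay between 2252 (GC trend removed) and 3703 (threshold of 0.1), and scaling by library size alone gave 1778 higher and 943 lower. Of 166 named genes that were called, 97 were called in every setting and 0 changed direction. Among the sex-linked genes Xist, which was not called at 0.34, was called at −0.913 without vDG replicate 1 and at 0.986 without vDG replicate 2. In WT the 2365 calls became 1330 at 0.01 and 1653 to 2196 when 1 library was left out. The interaction count of 0 became 256 with DESeq2, 362 with no count filter and 12 at 0.1. It was 0 to 48 when 1 library was left out: 48 without cKO dDG replicate 1, 29 without WT dDG replicate 3, 10 without WT vDG replicate 3, 4 without cKO vDG replicate 2 and 1 without WT dDG replicate 1. The cause of these shifts was not tested, except that the fits without 1 library hold fewer samples. Libraries of both regions share replicate numbers, but the labels do not tie a number to mice, and the correlation of deviations within same-numbered pairs was 0.137 in cKO and 0.392, −0.0972 and 0.238 in WT, so the numbers were not taken as a pairing. The cKO dDG libraries also carry other numbers in the names of the deposited data than in their titles, which were used here. By those names the only shared pair would be dDG replicate 1 with vDG replicate 2, whose correlation was −0.137. With 2 libraries per region, the cKO correlations have 1 common size and differ only in sign. The value of −0.137 is therefore no separate check. In cKO, dDG replicate 1 held the Y-linked reads that vDG replicate 1 lacked. With a replicate block 3859 genes were called in cKO (3192 with the GC trend also removed), 2947 in WT and 148 for the interaction. Depth limits the folds of genes with few dDG reads, such as Trhr and Vgll3.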

Other observations

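For 12 genes the adjusted p of the region by genotype interaction was below 0.1, and none was called at 0.05. They were Hsp90aa1, Pvrl3, Smc1a, Gprasp1, Atf1, Chgb, Sv2b, Tcf3, Ttr, Hspa4, Ssb and Sept6. Sv2b, a synaptic vesicle glycoprotein, had log2 fold changes, vDG over dDG, of 0.92 in cKO and 2.54 in WT. For Pvrl3, which encodes the adhesion protein nectin-3, they were 0.58 and 1.80. Hsp90aa1, a stress-inducible chaperone, was at −0.32 (adjusted p = 0.11, edgeR) in cKO and at 0.87 in WT. Smc1a, a cohesin subunit, was at −0.996 in cKO and, not past the test, at 0.27 in WT (adjusted p = 0.19, edgeR).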
